A study of Mus musculus with 8 samples.

Results

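The 42 genes described here encode nucleus-encoded subunits of the last steps of oxidative phosphorylation, and were measured in whole hearts of mice lacking the coactivator SRC-2 and of WT mice. They are the genes whose symbol starts with Uqcr, with Cox4, Cox5, Cox6, Cox7 or Cox8, or with Atp5, among the 18194 genes that the platform annotation used pairs with a probeset of 1 symbol, and they were chosen by name. Of these, 8 belong to complex III, 17 to complex IV and 17 to ATP synthase. Together they are read by 82 probesets, 26 of the genes by more than 1, and for each gene the brightest of its probesets on average was used. Cox7b has no entry in that annotation and was not analysed here.

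Complex III takes electrons from ubiquinol and passes them to cytochrome c, complex IV passes them on to oxygen, and both pump protons across the inner mitochondrial membrane. ATP synthase lets the protons back through its membrane ring and uses the turning of the ring to make ATP. Heart muscle depends on this chain for nearly all of its ATP and is packed with mitochondria, and in heart and skeletal muscle some complex IV subunits are supplied by muscle isoforms (Cox6a2, Cox7a1 and Cox8b) in place of the forms made in most tissues (Cox6a1, Cox7a2 and Cox8a).

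The hearts came from 4 SRC-2 KO mice, which lack the gene Ncoa2, and from 4 WT mice. All were males of the labelled strain C57B/6Jx129Sv, 10 to 12 weeks old by the labels, fed ad lib and unstressed, and the methods describe the animals as age-matched littermates. Each heart was hybridised to its own Affymetrix mouse array. The knockout is not described as restricted to heart muscle, and a whole heart holds many cell types. Signals were used as log2 of the deposited intensity, so a difference of 1 is a doubling, and a signal is not compared between probesets because probes differ in how well they bind.

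Ncoa2 was read first as a check of the labels. Its signal ranged between 235 and 267 in KO hearts and between 1660 and 2134 in WT hearts, a log2 difference of -2.95 (SE 0.12), and it passed the test (adjusted p = 0.000588, limma with a common variance over all genes). The 10 markers of ventricular and general heart muscle had summed signals of 595250 to 757032 in KO hearts and 505595 to 661479 in WT hearts. All 10 atrial markers were lower on average in KO hearts (median log2 difference -1.88), with summed signals of 20524 to 203211 against 165127 to 275041 in WT hearts. Of these atrial markers 0 passed with the common variance (lowest adjusted p = 0.295, limma; 8 at an unadjusted p under 0.05) and 2 passed, both lower, in the trended fit, in which the variance follows the signal. All 10 fibroblast markers (median -0.63) and all 10 macrophage and leukocyte markers (median -0.34) were also lower on average in KO hearts. The fibroblast markers summed to 61657 to 92834 in KO hearts and 90658 to 146011 in WT hearts, and the macrophage markers to 15155 to 18851 in KO hearts and 19462 to 24857 in WT hearts. None of these markers had a mean signal under 50. Of 10 skeletal muscle markers, a tissue that shares the muscle isoforms of complex IV, 5 had a mean signal under 50, and their sums were 3715 to 25523 in KO hearts and 20106 to 30042 in WT hearts. Acta1, an actin that heart muscle itself also expresses, made up 87.0% to 97.5% of that sum in KO hearts and 94.3% to 97.7% in WT hearts, and the other 9 markers summed to 388 to 639 in KO hearts and 619 to 1291 in WT hearts. The part that these markers of tissue makeup play in the values below was not tested, and in a whole heart fewer cells of a type cannot be told apart from less RNA per cell.

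None of the 42 genes passed the test for a difference between SRC-2 KO and WT hearts, although the means of most were slightly higher in KO. In the common-variance limma fit 0 of 42 passed at an adjusted p under 0.05 in either direction and 0 at an unadjusted p under 0.05, and the trended fit also called 0 with 0 at an unadjusted p under 0.05. Over all genes the common-variance fit called 0.0220% and the trended fit 0.379%, shares so low that a count of 0 among 42 does not set these genes apart. At an unadjusted p under 0.05 the common-variance fit passed 10.1% of all genes and the trended fit 12.6%. The lowest adjusted p among the members belonged to Uqcrc1, at 0.550 with the common variance and 0.401 with the trended one. In no member did the 4 KO values lie wholly above or below the 4 WT values, against 6.83% of all genes and 18.8% of the 329 other genes above the 98th percentile of signal.

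The means of 38 of the 42 genes (90.5%) were higher in KO hearts and those of 4 were lower, where 47.0% of all genes were higher. The median log2 difference was 0.19 for the members and -0.026 for all genes. This lean to KO was shared by other bright genes, among them other genes of the chain. Of the 329 other genes above the 98th percentile of signal, where 35 of the members also lie, 86.3% were higher in KO, with a median of 0.16. For the 1783 others above the 90th percentile the median difference was 0.086. The median log2 signal was 15.44 in the members, 14.49 in the 329 genes and 12.39 in the 1783, so neither set matched the members in brightness. Quantile normalization gives every array the same distribution of signals. After it, 25 members were higher and 17 lower in KO, with a median of 0.0092. A shift that the brightest probesets share is taken out by this step itself, so a median near 0 was largely fixed in advance. The common shift thus depends on the scaling of the arrays, and its cause was not tested.

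The 37 genes with a mean log2 signal of 12 or more gave a narrow band of differences. Of these, 36 were higher in KO hearts, 30 of them by a log2 of 0.1 to 0.3, and the median corresponds to a signal 13.8% higher in KO. Their differences varied among genes with an SD of 0.066, less than the SE of any one of them (0.097 to 0.17). The upper 95% bounds ran from 0.28 to 0.60, and the lowest lower bound was -0.34. With 4 arrays in each group, the 95% interval of each of these genes included 0 and all differences up to its upper bound.

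Complex III had 8 genes, and all 8 means were higher in KO, with a median of 0.19 and a range of 0.14 to 0.26. Uqcrc1, which encodes core protein 1 of the complex, had log2 signals of 15.66, 15.43, 15.66 and 15.34 in KO hearts and 15.41, 15.30, 15.29 and 15.02 in WT hearts. The first 3 KO hearts lay above every WT heart and the fourth lay between the WT hearts. The difference was 0.26 (SE 0.13, 20.1% higher in KO) and did not pass (adjusted p = 0.550, limma), the smallest p of any member.

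Uqcr10, a small subunit of the complex, had 14.89, 14.65, 14.80 and 14.54 in KO hearts and 14.66, 14.58, 14.42 and 14.36 in WT hearts, a difference of 0.22 (SE 0.13; adjusted p = 0.597, limma). Its KO and WT values overlapped. A second, dimmer Uqcr10 probeset (mean log2 signal 10.98) read 11.09, 11.11, 11.27 and 11.13 in KO hearts and 10.86, 10.78, 10.86 and 10.77 in WT hearts, and there every KO heart lay above every WT heart. Uqcrfs1, the Rieske iron-sulfur protein that carries electrons within the complex, had 15.19, 15.07, 15.35 and 15.07 in KO hearts and 15.02, 15.13, 14.83 and 14.90 in WT hearts. The 2 groups overlapped because WT heart 2 lay above 2 of the KO hearts, and the difference was 0.20 (SE 0.12; adjusted p = 0.603, limma). The other 5 genes, Uqcrc2 (core protein 2), Uqcrb, Uqcrh (the hinge protein near cytochrome c), Uqcrq and Uqcr11, gave differences of 0.14 to 0.19.

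Complex IV had 17 genes, 13 with higher means in KO and 4 with lower, and a median of 0.19. Cox4i1, the main form of the largest nucleus-encoded subunit, had log2 signals of 16.18, 15.86, 15.99 and 15.84 in KO hearts and 15.93, 15.90, 15.71 and 15.58 in WT hearts. KO hearts 1 and 3 were above every WT heart and KO hearts 2 and 4 were not. Its difference was 0.19 (SE 0.13; adjusted p = 0.660, limma), and after quantile normalization it was -4.5e-05. Cox5a (0.22), Cox5b (0.21), Cox6c (0.19) and Cox6b1 (0.19) gave differences of like size, none of which passed.

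The isoforms of heart and skeletal muscle were set against the forms made in most tissues. Cox6a2, the muscle form of subunit 6a, had 16.21, 15.76, 15.97 and 15.70 in KO hearts and 15.79, 15.80, 15.80 and 15.39 in WT hearts. KO hearts 1 and 3 were high, WT heart 4 was low, and the rest lay together. The difference was 0.21 (SE 0.16; adjusted p = 0.681, limma). Cox6a1, its counterpart, had 15.24, 15.16, 15.25 and 15.04 in KO hearts and 15.08, 15.14, 14.92 and 14.79 in WT hearts, with a difference of 0.19 (SE 0.12; adjusted p = 0.611, limma). A second Cox6a2 probeset, whose suffix marks probes that can bind other transcripts, gave 15.67, 14.50, 15.64 and 15.31 in KO hearts and 14.12, 13.72, 15.46 and 13.92 in WT hearts. Its values spread far more within a genotype than those of the probeset used, and the groups overlapped.

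Cox7a1, the muscle form of subunit 7a, had 15.60, 15.32, 15.36 and 15.23 in KO hearts and 15.34, 15.33, 15.35 and 15.24 in WT hearts. The WT hearts were nearly equal (SD 0.051), and KO heart 1 stood well above them while the other KO hearts lay beside them. The difference was 0.063 (SE 0.11; adjusted p = 0.865, limma), and it was -0.012 without KO heart 1. Cox7a2, its counterpart, had 16.16, 15.90, 16.08 and 15.84 in KO hearts and 15.93, 15.89, 15.76 and 15.62 in WT hearts, a difference of 0.20 (SE 0.13; adjusted p = 0.617, limma). For subunit 7a the common form had the mean farther above WT.

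Cox8b, the muscle form of subunit 8, had 15.78, 15.45, 15.62 and 15.41 in KO hearts and 15.52, 15.43, 15.34 and 15.18 in WT hearts, a difference of 0.20 (SE 0.13; adjusted p = 0.636, limma). Cox8a, its counterpart, had 12.88, 12.94, 12.87 and 12.91 in KO hearts and 12.93, 12.71, 12.91 and 12.85 in WT hearts. The KO hearts were nearly equal (SD 0.034), and the difference was 0.051 (SE 0.097; adjusted p = 0.871, limma).

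Within each heart the log2 signal of the muscle isoform minus that of its counterpart was then compared between genotypes, which takes out any shift that both probesets share. For Cox6a2 minus Cox6a1 the KO hearts exceeded the WT hearts by 0.022 (95% interval -0.22 to 0.27; p = 0.743, two-sided exact permutation test over the 8 arrays). For Cox7a1 minus Cox7a2 the KO hearts were lower by 0.14, a value of -0.14 with a 95% interval of -0.29 to 0.020 (exact permutation p = 0.114). For Cox8b minus Cox8a the KO hearts exceeded the WT hearts by 0.15 (95% interval -0.17 to 0.46; exact permutation p = 0.314). Adjusted over the 3 pairs these p-values were 0.743, 0.343 and 0.471. Before adjustment 0.0286 is the smallest exact permutation p that 4 against 4 arrays allow. So 1 separated pair alone could not have passed 0.05 once adjusted. KO and WT values overlapped in all 3 pairs, and the pairs did not share a direction. The sign of the Cox6a2 pair turned to -0.054 without KO heart 1, to -0.015 without WT heart 4 and to -0.024 after quantile normalization. With all probesets of each gene averaged this pair gave 0.45 (exact permutation p = 0.143), which brings in the second Cox6a2 probeset. That of the Cox8b pair turned to -0.31 when all probesets of each gene were averaged, which brings in a Cox8a probeset with a mean log2 signal of 4.13. Without KO heart 1 the Cox8b pair gave 0.069, without WT heart 4 it gave 0.084, and after quantile normalization it gave 0.049.

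**Figure D1:**
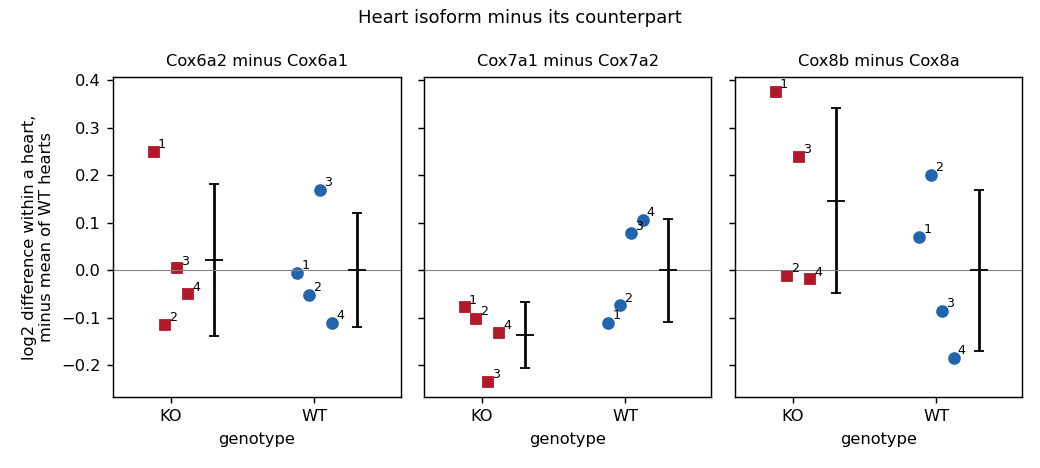
Log2 signal of the muscle isoform minus that of its counterpart in each heart, shown relative to the WT mean, for the 3 isoform pairs of complex IV. Squares are KO hearts and circles WT hearts, numbered by replicate, with the mean and SD beside them. KO and WT hearts overlap in each panel, with mean differences of 0.022, -0.14 and 0.15.

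The stretches of 250 bases before the start sites of these isoforms are shown because they let the muscle forms be set beside the common ones. RefSeq promoters (GRCm38.p6) were matched for 32 of the 42 genes, and among those without an entry were Cox6a2 and Cox4i1. Capitals mark matches to the motifs searched, on either strand. The Cox7a1 window is chr7:30183921-30184170 on the plus strand and holds 2 CCAAT boxes, and the Cox8b window is chr7:140900447-140900696 on the minus strand and holds 1 E-box. The Cox6a1 window is chr5:115348959-115349208 on the minus strand, with 1 CCAAT box, 1 ETS match and 2 overlapping NRF1 half-sites. The Cox7a2 window is chr9:79759854-79760103 on the minus strand, with no match, and the Cox8a window is chr19:7217617-7217866 on the minus strand, with 1 CCAAT box. The Cox7a2 window lies inside the listed bounds of its gene (chr9:79755241-79771422), so its lack of a match holds for that start site only. The other windows adjoin the listed bounds of their genes.
Cox7a1: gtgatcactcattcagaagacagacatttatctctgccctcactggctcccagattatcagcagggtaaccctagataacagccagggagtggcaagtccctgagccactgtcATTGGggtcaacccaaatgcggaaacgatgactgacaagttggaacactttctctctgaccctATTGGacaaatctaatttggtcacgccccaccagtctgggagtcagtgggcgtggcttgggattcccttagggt
Cox8b: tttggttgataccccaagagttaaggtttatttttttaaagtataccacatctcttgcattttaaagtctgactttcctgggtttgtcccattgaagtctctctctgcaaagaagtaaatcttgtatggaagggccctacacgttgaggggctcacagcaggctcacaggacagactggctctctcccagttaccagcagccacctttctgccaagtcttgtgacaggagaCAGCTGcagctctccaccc
Cox6a1: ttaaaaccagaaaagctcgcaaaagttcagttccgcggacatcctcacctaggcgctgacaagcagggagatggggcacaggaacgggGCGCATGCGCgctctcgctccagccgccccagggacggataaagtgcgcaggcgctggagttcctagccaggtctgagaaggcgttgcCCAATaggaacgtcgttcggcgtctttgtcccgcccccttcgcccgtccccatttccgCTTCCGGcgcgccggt
Cox7a2: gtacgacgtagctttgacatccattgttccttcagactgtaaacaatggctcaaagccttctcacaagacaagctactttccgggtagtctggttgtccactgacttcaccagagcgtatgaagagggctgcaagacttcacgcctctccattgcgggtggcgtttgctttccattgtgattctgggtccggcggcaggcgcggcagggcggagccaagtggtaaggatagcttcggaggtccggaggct
Cox8a: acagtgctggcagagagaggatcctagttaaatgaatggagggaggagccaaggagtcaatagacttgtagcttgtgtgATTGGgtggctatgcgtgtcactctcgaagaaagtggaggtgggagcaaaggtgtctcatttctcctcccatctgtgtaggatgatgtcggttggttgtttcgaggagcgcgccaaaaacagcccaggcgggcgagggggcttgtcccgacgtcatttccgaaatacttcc

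Over the same windows of all matched members, the CCAAT box (CCAAT) was found in 17 of 32 genes (53.1%), against 37.5% of 27025 RefSeq genes. The ETS core (CCGGAAG) was found in 8 genes (25%, against 7.83%), and a half-site of NRF1 (GCGCATG), a regulator of nuclear genes for mitochondrial proteins, in 5 genes (15.6%, against 3.68%). The TATA box (TATAAA) was found in 3 genes (9.38%, against 14.3%), the ERR half-site (AAGGTCA) in 2 (6.25%, against 4.70%) and the E-box (CAGCTG) in 2 (6.25%, against 14.7%). A MEF2 site, named for the muscle transcription factor, was found in 0 genes, against 3.42%. Both strands were searched, and the GCGCATG half-site overlaps its own reverse complement where a full site is present, as in Cox6a1. These are matches of letters, not sites shown to be bound.

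In all, 4 complex IV genes had lower means in KO, and 3 of them were dim. Cox7a2l, a factor that joins complexes III and IV into supercomplexes, had log2 signals of 13.16, 13.10, 13.15 and 12.84 in KO hearts and 13.32, 12.84, 13.08 and 13.05 in WT hearts. The WT hearts alone spanned the whole KO range, and the difference was -0.0082 (SE 0.14; adjusted p = 0.988, limma). Cox8c, known as a testis form of subunit 8, had 8.25, 8.33, 8.25 and 8.52 in KO hearts and 8.66, 8.45, 8.21 and 8.55 in WT hearts, a difference of -0.13 (SE 0.14; adjusted p = 0.759, limma).

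Cox7c, a small subunit that every respiring cell uses, had 5.70, 6.95, 6.46 and 6.96 in KO hearts and 6.82, 6.38, 7.37 and 7.25 in WT hearts. Its difference was -0.44 (SE 0.35; adjusted p = 0.693, limma), and it was -0.17 without KO heart 1. Both probesets listed for Cox7c were dim, with mean log2 signals of 6.74 and 4.54, so little can be read from them about this gene. The other dim members were Cox7b2 (-0.30), Cox6b2 (0.45) and Cox4i2 (0.45), isoforms known from testis or, for Cox4i2, from lung, with SE of 0.31 to 0.42.

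ATP synthase had 17 genes, and all 17 means were higher in KO, with a median of 0.17 and a range of 0.014 to 0.24. Atp5b, the catalytic beta subunit, had log2 signals of 16.02, 15.82, 16.04 and 15.68 in KO hearts and 15.74, 15.82, 15.63 and 15.40 in WT hearts. KO hearts 1 and 3 were above every WT heart, KO heart 2 only just so (15.8222 against 15.8195 in WT heart 2), and KO heart 4 was not. The difference was 0.24 (SE 0.14, 18.3% higher in KO; adjusted p = 0.595, limma).

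Atp5j2, the f subunit of the membrane part, had 15.94, 15.73, 15.89 and 15.66 in KO hearts and 15.66, 15.73, 15.58 and 15.30 in WT hearts, a difference of 0.24 (SE 0.13; adjusted p = 0.588, limma). Atp5l, the g subunit beside it, had 15.52, 15.37, 15.46 and 15.16 in KO hearts and 15.29, 15.23, 15.17 and 14.97 in WT hearts, a difference of 0.21 (SE 0.13; adjusted p = 0.604, limma). In both genes KO heart 4 and WT heart 4 were the lowest of their genotypes and the groups overlapped. Among the others, Atp5g3, Atp5g1 and Atp5g2, which encode the same mature protein of the proton ring, gave 0.24, 0.15 and 0.075. Of the catalytic head and its stalk, Atp5a1 (alpha) gave 0.17, Atp5c1 (gamma) 0.20, Atp5d (delta) 0.21 and Atp5e (epsilon) 0.068. The subunits that hold the head in place, Atp5o, Atp5pb, Atp5h and Atp5j, gave 0.097 to 0.17, and Atp5md, a small subunit of the membrane part, gave 0.014.

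The other probesets of the members mostly leaned the same way. Of the 25 not used above that had a mean log2 signal of 12 or more, 23 were higher in KO, and of 15 dimmer ones 10 were. Every KO heart lay above every WT heart in 1 of the 62 member probesets with a mean log2 signal of 12 or more. Of all genes, each read by its brightest probeset, 3.11% did so, and of the 329 other genes above the 98th percentile 17.3%. Among all 82 member probesets, dim and unused ones included, this held in 3 (3.66%), and in 0 every KO heart lay below. Besides the dimmer Uqcr10 probeset these were a second, bright Atp5a1 probeset, with 15.62, 15.55, 15.58 and 15.35 in KO hearts and 15.15, 15.28, 15.29 and 15.08 in WT hearts, and a dim Atp5g1 probeset, whose log2 difference was 0.53. For Atp5a1 this second probeset gave 0.32 where the probeset used gave 0.17, so the size of its difference depends on the probeset.

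The bright members varied together from heart to heart. Relative to the WT mean, the median of the 37 bright genes was 0.37 in KO heart 1, 0.093 in KO heart 2, 0.25 in KO heart 3 and 0.022 in KO heart 4, and in WT hearts 1 to 4 it was 0.10, 0.10, -0.017 and -0.19. KO hearts 1 and 3 thus stood apart, KO hearts 2 and 4 lay among the WT hearts, and WT heart 4 was the lowest. KO heart 1 was above every WT heart in 33 of the 37 genes, KO heart 3 in 30, KO heart 2 in 11 and KO heart 4 in 0. KO heart 1 held the highest value of 29 genes and WT heart 4 the lowest of 31.

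**Figure D2:**
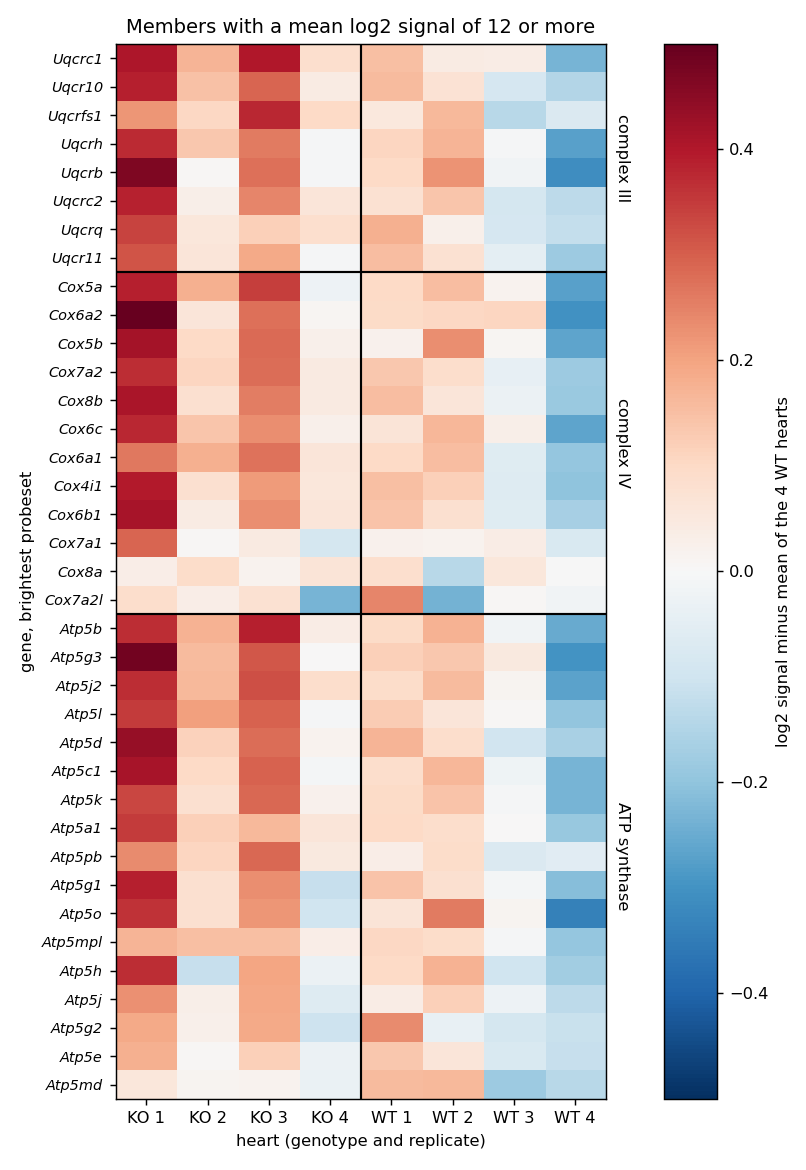
Log2 signal of the 37 genes with a mean of 12 or more by heart, as the difference from the WT mean, with KO hearts left of the line and WT hearts right of it. The columns of KO hearts 1 and 3 are red throughout most genes and that of WT heart 4 is mostly blue, with medians of 0.37, 0.25 and -0.19.

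The 3 complexes showed this order alike. The medians of complex III were 0.38, 0.082, 0.27 and 0.050 in KO hearts 1 to 4 and 0.13, 0.11, -0.067 and -0.16 in WT hearts 1 to 4, and those of ATP synthase were 0.35, 0.10, 0.23 and -0.0075 in KO hearts and 0.10, 0.12, -0.017 and -0.19 in WT hearts. The median correlation between pairs of bright members across the 8 hearts, each heart taken relative to its genotype mean, over 666 pairs, was 0.88 (Pearson's r). The genes share the same 8 arrays and their scaling, so these pairs are not independent. Atp5c1 followed the other bright members most closely (r = 0.99 with their median), and Cox8a (r = -0.29) and Cox7a2l (r = 0.38) followed them least.

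Genes other than the members, and a Gapdh control of the array, showed a like order of hearts. The 329 other genes above the 98th percentile leave out only the members. They include other genes of the chain, such as Cycs, and muscle markers such as Myh6. For the 329 other genes above the 98th percentile of signal the medians were 0.27, 0.10, 0.19 and 0.054 in KO hearts 1 to 4 and 0.083, 0.044, -0.024 and -0.11 in WT hearts 1 to 4. For the 10 ventricular and general muscle markers they were 0.38, 0.11, 0.28 and 0.0020 in KO hearts and 0.078, 0.19, 0.012 and -0.24 in WT hearts. The 3' control probeset for Gapdh, an enzyme of glycolysis used as a control on the array, read 0.32, 0.077, 0.29 and -0.016 in KO hearts and 0.12, 0.12, -0.013 and -0.22 in WT hearts relative to the WT mean. The log2 signal at the 99th percentile of each array was 14.18 to 14.41 in KO and 14.11 to 14.22 in WT. The part of array scaling and of muscle content in the values of the members was not tested.

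**Figure D3:**
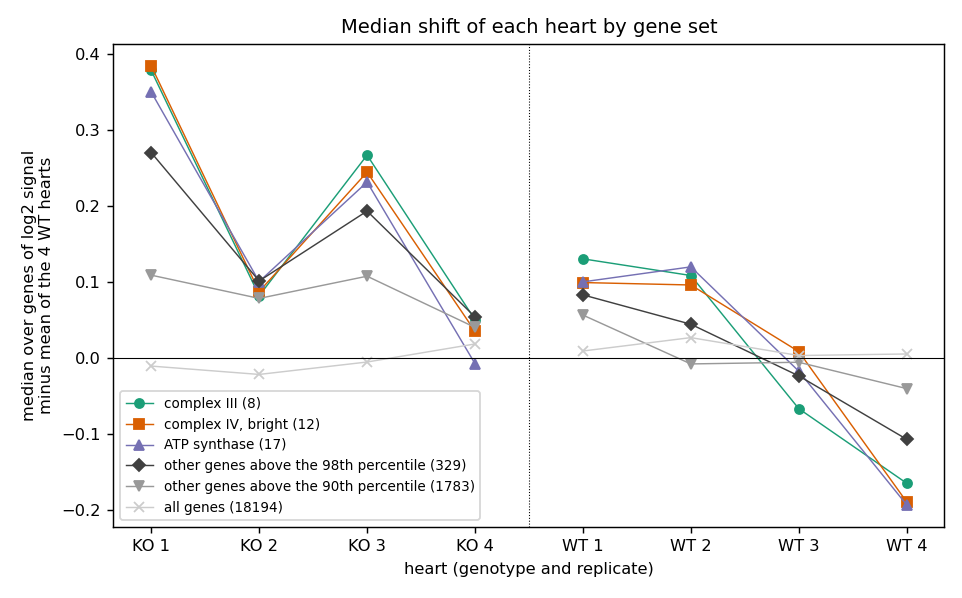
Median over genes of the log2 signal relative to the WT mean, by heart, in complex III, bright complex IV genes, ATP synthase, the other genes above the 98th and the 90th percentile of signal, and all genes, with lines that only join the points of 1 set. The 3 complexes trace nearly the same line, highest in KO heart 1 and lowest in WT heart 4, and the other bright genes trace it at a smaller size.

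Leaving out hearts moved the common shift. Without KO heart 1 the median of the 42 genes was 0.12, without WT heart 4 it was 0.11, and without KO heart 4 it was 0.23. With each array centred on the 1783 other genes above the 90th percentile the median was 0.14, with 37 of 42 higher in KO. With each array centred on the median of all genes it was 0.34, with 40 of 42 higher and 15 at an unadjusted p under 0.05. This moved the median of all genes by 0.15 as well, to 0.13, and 63.9% of all genes were then higher in KO. The share of all genes at that p is not given here, so the 15 cannot be set beside it. No member passed after adjustment (lowest adjusted p = 0.325, limma). Under quantile normalization the bright members lay between -0.13 and 0.12, with 23 higher and 14 lower in KO.

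**Figure D4:**
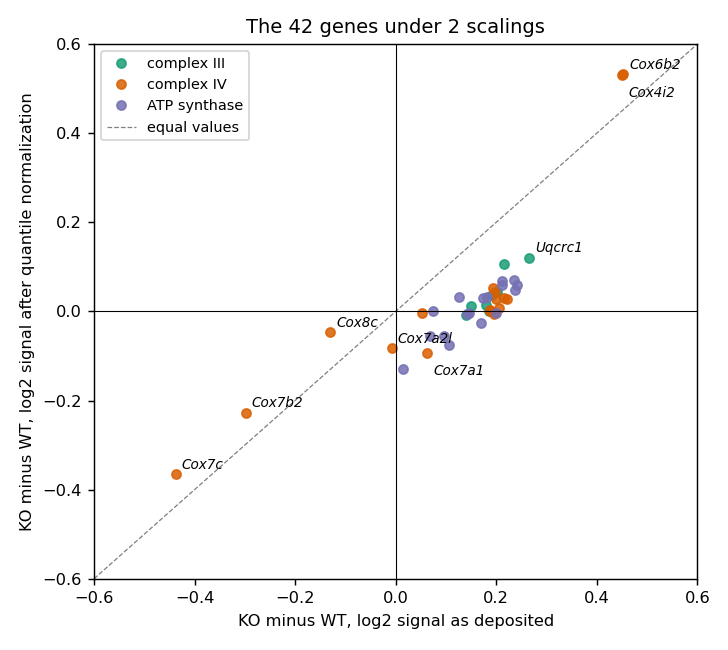
Points are the 42 genes, coloured by complex, with the KO minus WT log2 difference as deposited on the horizontal axis and after quantile normalization on the vertical axis. The bright genes, which lie near 0.19 as deposited, lie around 0 after quantile normalization, between -0.13 (Atp5md) and 0.12 (Uqcrc1). That step itself takes out a shift that the brightest probesets share.

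The rest of the chain and the factors that build it also leaned to higher means in KO. Of 37 listed complex I subunits 34 were measured, 32 were higher in KO with a median of 0.21, and 0 passed in either fit. At an unadjusted p under 0.05 the common-variance fit passed 4 (11.8%) and the trended fit 9 (26.5%). Of the 329 other genes above the 98th percentile of signal, which themselves include complex I genes, these fits passed 16.7% and 27.1%. Ndufa12, an accessory subunit of complex I, gave 0.70 (SE 0.21; adjusted p = 0.402, limma), and Ndufa6, another accessory subunit, gave 0.27 (SE 0.097; adjusted p = 0.440, limma), both with every KO heart above every WT heart. Such separation in the KO direction occurred in 5 of the 34 genes (14.7%), against 3.11% of all genes and 17.3% of those 329 bright genes. All 4 complex II genes were higher, with Sdhd, a membrane anchor, at 0.21 and Sdha, the flavoprotein, at 0.23. Cyc1, the cytochrome of complex III, gave 0.22 and Cycs, the mobile cytochrome c, gave 0.23. No gene of complex II and neither cytochrome passed in either fit, and at an unadjusted p under 0.05 only 1 complex II gene did, in the trended fit.

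Of the factors that assemble complex III, all 6 were higher in KO (median 0.17), with Uqcc1 at 0.51 (SE 0.16; adjusted p = 0.404, limma) and Bcs1l, which inserts the Rieske protein, at 0.30. Of 23 measured assembly factors of complex IV, 19 were higher (median 0.10). Surf1 gave 0.32, with every KO heart above every WT heart (3.11% of all genes). Cox10, an enzyme of heme A synthesis, gave 0.38. Of 5 measured ATP synthase factors, 4 were higher. Atpaf1, which helps assemble the catalytic head, gave 0.34 and Tmem70, which helps build the membrane ring, gave 0.31. In both, every KO heart lay above every WT heart (3.11% of all genes). Atpif1, the inhibitor that keeps ATP synthase from running in reverse, was the exception. It gave -0.28 (SE 0.12; adjusted p = 0.503, limma), with every KO heart below every WT heart (3.72% of all genes), and is named here after its values were seen. None of these assembly genes passed in either fit. At an unadjusted p under 0.05 the common-variance fit passed 1 factor of complex III, 2 of complex IV and 1 of ATP synthase, all higher in KO. The trended fit passed 2, 3 and 3, and of the last 3, 2 were higher and Atpif1 was lower. Over all genes these fits passed 10.1% and 12.6% at that threshold. The 6 listed subunits encoded in mitochondrial DNA were not analysed here.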

How the data were processed

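RNA from 8 whole hearts, 4 SRC-2 KO and 4 WT by the labels, was read on Affymetrix whole-genome mouse arrays, 1 heart per array, so the number of arrays limits the precision. The authors deposited 1 table of intensities on a linear scale, 0.219 to 124739, each array scaled to a mean of 500 after 2% of the 45101 probesets was trimmed at each end. Partek, RMA and Affymetrix Expression Console are named in the submitters' processing notes, but the table does not hold log2 RMA values, so its log2 was used without a floor or further scaling. Such scaling leaves the arrays with different distributions of signal, and bright genes can differ with them. Of the probesets, 64 are controls, 9211 were not listed in the platform annotation used and 932 name several genes, and the 34958 with 1 symbol gave 18194 genes, 18033 with a current symbol.

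The comparison of KO with WT used limma 3.58.1 in R 4.3.3 (lmFit, eBayes with a common prior variance), two-sided, with Benjamini-Hochberg adjustment over all genes and a threshold of 0.05. SE and 95% intervals come from that fit. Isoform pairs were tested by exact permutation in Python 3.11.15 with scipy 1.17.1. Members with a mean log2 signal of 12 or more were called bright. Named in full were the 3 isoform pairs, members the study names, the 3 smallest p in each complex, members whose groups did not overlap (0), and members with a negative difference and a mean signal of 50 or more. Of each other list, up to 2 genes with the smallest p were named. Members and lists were chosen with earlier results of these data known. Alternatives were other variance models, array weights, a block for replicate number, filters and floors at a signal of 50, median centring, quantile normalization, other probeset rules, and leaving out each array. The fit was tested on simulated data for KO against WT over 18194 genes, where it found 39 of 100 genes given a log2 change of 1 and 61 of 100 given one of 2. Among those with a mean log2 signal over 10 the counts were 19 of 23 and 16 of 16. Of the unchanged genes it called 4. The simulated noise was drawn for each gene on its own, and both changes were larger than the member differences. The simulation therefore does not show what could be found at the sizes seen here. Figures were drawn with matplotlib 3.10.9.

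Replicate numbers showed no sign of pairing the arrays. Deviations of same-numbered KO and WT arrays from their group means correlated at 0.07, -0.08, -0.03 and 0.12. Differently numbered arrays gave -0.13 to 0.15, and this check cannot exclude that some animals were paired by litter. A figure legend gives 1 mouse per array.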

Additional observations from a re-analysis of the deposited data

Results flagged for a closer look

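Of 46 sets of 4 hearts checked for a single far value, 2 were flagged, where chance flags about 1 in 20. Cox6a2 in WT heart 4 had a log2 signal of 15.39, -0.3042 relative to the WT mean, with the nearest WT heart at 15.79, and without this heart its difference was 0.11 in place of 0.21. Cox7a2l in KO heart 4 had 12.84, at -0.2305 relative to the WT mean, with the nearest KO heart at 13.10, and without this heart its difference was 0.066 in place of -0.0082.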

How the results depend on the processing

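The count of members called stayed at 0 in either direction under every alternative run, with 4 against 4 or 4 against 3 arrays, while the lowest adjusted p (Benjamini-Hochberg) ranged between 0.246 and 0.745. At an unadjusted p under 0.05, 15 members were higher in KO after median centring, and 0 to 5 were under the other alternatives. For median centring the share of all genes at that threshold is not given here, and 63.9% of all genes were higher in KO. The medians moved with the scaling, though quantile normalization itself takes out a shift that the brightest probesets share. Centring each array on the median of all genes gave 0.34 for all members, 0.34 for complex III, 0.35 for complex IV and 0.32 for ATP synthase, and quantile normalization gave 0.00924, 0.0248, 0.00341 and 0.000763. Leaving out 1 heart at a time gave 0.11 to 0.23 for all members, 0.12 to 0.24 for complex III, 0.12 to 0.24 for complex IV and 0.10 to 0.22 for ATP synthase. KO heart 1 and WT heart 4 each lowered the median by more than 1.5 times when left out. With 1 heart left out, the isoform pairs ran from -0.0543 (without KO heart 1; -0.0154 without WT heart 4) to 0.0779 (Cox6a2), -0.17 to -0.10 (Cox7a1) and 0.0692 to 0.21 (Cox8b), where 4 against 3 hearts cannot go below p = 0.0571 in the exact test. The Cox6a2 pair reversed to -0.0243 after quantile normalization, and the Cox8b pair to -0.31 (exact permutation p = 0.343) with all probesets averaged, a setting that took the Cox6a2 pair to 0.45 (p = 0.143, exact permutation). Quantile normalization took the Cox8b pair to 0.0485. Single genes that reversed under quantile normalization were Cox4i1 (-4.5e-05), Cox7a1 (-0.0930) and Cox8a (-0.00455), under median centring Cox7a2l (0.14) and Cox8c (0.0231), and with array weights Cox7a2l (0.00393). Leaving out 1 heart took Cox7a1 to -0.0123 (without KO heart 1) and Cox7a2l to between -0.0866 and 0.0737 (above 0 without KO heart 4 or WT heart 1). With the replicate number as a block the median was 0.19 and 0 members were called, with a lowest adjusted p of 0.591 (limma). The numbers showed no sign of pairing the arrays. The cause of these changes was not tested. With SE of 0.097 to 0.17, 4 arrays per genotype cannot resolve differences of the size seen here. Many of the brightest probesets, among them those used for Cox8a and Cox7a2l, carry suffixes that mark possible binding of other transcripts. For Cox8a a probeset without such a suffix gave a difference of 0.056.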

Other observations

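Markers of other cells that a whole heart can hold were read beside the members, with no test of their part. Of 10 endothelial markers 9 were lower on average in KO (median -0.23), summing to 12956 to 17176 in KO hearts and 16455 to 19932 in WT hearts. Of 8 smooth muscle and pericyte markers 6 were lower (median -0.22), although their sums were 76471 to 95084 in KO hearts and 64133 to 72077 in WT hearts. The brightest of the 8, Acta2 (log2 difference 0.74), Rgs5 (-0.055) and Des (0.35), made up most of these sums, which say little about the others. Of 6 measured white adipocyte markers 5 were higher (median 0.36), with sums of 108706 to 128534 in KO hearts and 95829 to 118936 in WT hearts and Lep under a mean signal of 50. Lpl (log2 difference 0.18) and Fabp4 (-0.091) made up nearly all of these sums, which say little about the other markers. Adipoq, the next brightest, had a mean log2 signal of 9.23 in KO hearts, against 16.24 for Lpl and 15.25 for Fabp4. Of 7 brown adipocyte markers 3 were higher (median -0.02), with sums of 2280 to 4234 in KO hearts and 2473 to 3410 in WT hearts and Lhx8 and Zic1 under 50. All 3 measured erythrocyte markers were higher (median 0.59), with sums of 1130 to 4650 in KO hearts and 740 to 1584 in WT hearts and Hba-a1 under 50. With the common variance 0 smooth muscle and 0 skeletal muscle markers passed (lowest adjusted p = 0.316 and 0.310, limma), and in the trended fit 1 smooth muscle marker passed higher and 1 skeletal muscle marker passed lower. At an unadjusted p under 0.05 the common-variance fit passed 2 smooth muscle markers higher and 2 lower, and 2 skeletal muscle markers lower.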
